A study of Homo sapiens with 8 samples.

Results

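CTCF peaks that arose in CBL0137-treated HT1080 cells were examined. A peak of treated cells was counted as arisen if it shared no base with any peak of control cells, so that members were selected on the presence of a call in the deposited list of the treated cells and its absence from that of the control cells. By this rule 2386 of 29558 treated peaks had arisen, or 8.07% (Wilson 95% interval 7.77% to 8.39%). Of these, 2378 lay on chromosomes 1 to 22 and X and were described further, beside 27152 other treated peaks, which overlapped a control peak, and 20354 lost control peaks, which no treated peak overlapped. HT1080 is an established human fibrosarcoma line that carries an activated RAS oncogene, and both groups of cells were of this line. Treated cells were exposed to 3 µM CBL0137 for 6 h, and the labels give no treatment for the control cells. For control and for treated cells alike, 2 replicates of chromatin immunoprecipitated with an anti-CTCF antibody (ChIP) and 2 of input DNA were sequenced, which makes 8 libraries. Each list joins the replicates of its condition. No spread between replicates could therefore be computed, no p-value was computed across peaks, which are not replicates, and the intervals given here cover counting error only. The lists hold no read counts, so that the depth behind a peak is unknown, and the signal of control cells below the calling threshold was not analysed here.

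CTCF is a zinc finger protein that binds a long DNA motif and, together with cohesin, anchors chromatin loops. Its binding at many sites is sensitive to methylation of CG dinucleotides in the motif, and many CTCF sites lie in introns and between genes, with a smaller set at CG-rich promoters. CBL0137 is a curaxin, a class of small molecules that intercalate into DNA, unwrap it from nucleosomes and trap the histone chaperone FACT on chromatin.

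The sites of the arisen peaks of highest fold enrichment over input show what kind of DNA was called. The 12-base core of the CTCF consensus was looked for on either strand in 400 bp centred on the peak, and the best match is printed in capitals within 30 bases, 5′ to 3′ on the strand that carries it (GRCh37). Among the 10 arisen peaks of highest fold, 5 held a match with at most 1 mismatch, and their sites are shown as the matches found among these calls. In the order shown their peaks had folds of 61.1, 54.9, 52.1, 50.5 and 50.1, and all 10 peaks lay at sites that the authors' direct comparison lists as higher in treated cells.
Promoter of a lncRNA gene, minus strand, chr12:128675325-128675354: ttattgaaaGCAGCAGGGGGCgctactccc
Intron of ENPP6, plus strand, chr4:185018591-185018620: gccgccactCCACCGGGGGGCgctttcctc
Intron of LINC02940, minus strand, chr21:40409924-40409953: cacctagaaCCAGGAGGGGGCgccatcttg
Intergenic near NKX6-1, plus strand, chr4:85404136-85404165: cctgcccggCCTGCAGAGGGCgtaacaggc
Intergenic, minus strand, chr2:83745053-83745082: tgcctcctgCCAGGAGGTGGCgctttccag

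Matches without any mismatch were rarer. The following sites are shown because they place such a match in a promoter, in a coding exon, in intergenic DNA beside immunoglobulin variable genes and far from any control peak.
Promoter of OCA2, plus strand, chr15:28344099-28344128: cctcatggcCCACCAGGGGGCgactttttc
Coding exon of IQSEC2, minus strand, chrX:53263620-53263649: ggatcccggCCACCAGGGGGCtcctactcc
Intergenic, minus strand, chr14:106598573-106598602: tgctcagaaCCACCAGGGGGCgctcaggac
Intergenic, minus strand, chr11:50017294-50017323: agtcctattCCACTAGGTGGCgctgttgac

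The peak of highest fold, at the promoter of JAG2, held no match with at most 1 mismatch, and its best match had 2. The central 300 bp of this peak are printed with each of the 27 CG dinucleotides in capitals, beside the whole 250 bp of the OCA2 promoter peak, in which the capitals mark the core match (GRCh37, plus strand of the chromosome). GC content came to 72.0% in the JAG2 stretch and 64.4% in that of OCA2, which contained 12 CG dinucleotides.
JAG2 promoter, chr14:105635501-105635800: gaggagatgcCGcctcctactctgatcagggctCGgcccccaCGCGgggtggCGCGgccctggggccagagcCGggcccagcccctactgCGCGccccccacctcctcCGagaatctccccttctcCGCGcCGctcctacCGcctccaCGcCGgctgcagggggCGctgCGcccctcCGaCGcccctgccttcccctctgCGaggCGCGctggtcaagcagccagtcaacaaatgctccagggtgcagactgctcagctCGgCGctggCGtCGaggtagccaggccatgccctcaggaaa
OCA2 promoter, chr15:28344001-28344250: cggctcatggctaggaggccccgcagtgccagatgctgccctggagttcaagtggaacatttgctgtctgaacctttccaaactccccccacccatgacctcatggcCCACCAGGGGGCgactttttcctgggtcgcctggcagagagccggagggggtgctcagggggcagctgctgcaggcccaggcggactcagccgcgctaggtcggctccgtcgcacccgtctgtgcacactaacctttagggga

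As a description of the rule itself, arisen peaks were weaker and narrower than the treated peaks that overlapped a control peak. The median fold enrichment over input, a ratio taken from the authors' list, was 17.2 for arisen peaks (quartiles 12.3 and 24.4), whereas it was 29.0 for the other treated peaks (19.02 and 41.02). Median widths were 150 bp and 300 bp. The arisen share of treated peaks was 17.4% in the lowest quartile of fold (up to 18.1), 10.2% in the next quartile, 4.02% in the third and 0.623% in the highest (from 39.97). At the edge of the rule, 2 arisen peaks touched a control peak without sharing a base, with a median fold of 12.6, and 55 other treated peaks shared only 50 bp with one, with a median fold of 14.1. The number of members depended on the lists and on the rule: it was 480 when only the treated list was limited to a deposited FDR of 1e-05 or less, and 6140 when overlap had to exceed 50% of the larger peak. The lists did not reach equally far, with a largest FDR of 0.00221 in the treated and 0.00132 in the control list.

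The authors also compared the conditions directly, and the positions of the sites they list as higher in treated cells were set against the peaks. Because the same libraries were used, this is a further view of one contrast and no independent check. Such a site was overlapped by 970 arisen peaks, or 40.8% (38.8% to 42.8%), and by 4.31% of the other treated peaks. Most arisen peaks, therefore, were not at a site that the direct comparison lists. The share rose with fold, from 23.3% of arisen peaks in the lowest quartile to 55.9% and 69.0% in the middle quartiles and 45 of 46 peaks in the highest. It was 40.4% for arisen peaks with a control peak within 1 kb and 22 of 88 for those with none within 100 kb.

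Arisen peaks lay in GC-rich DNA. Over 500 bp around the peak centre the median GC content was 59.8% for arisen peaks (quartiles 51.6% and 66.8%), 48.0% for the other treated peaks and 43.0% for the lost control peaks. The median number of CG dinucleotides in the same window was 14, 7 and 4. Windows resembling CpG islands, with a GC content over 50% and a ratio of observed to expected CG over 0.6, made up 31.3% (29.5% to 33.2%) of arisen peaks, 12.01% of the other treated peaks and 3.52% of the lost peaks. The median GC content of arisen peaks was above that of the other treated peaks on 23 of 23 chromosomes. When all treated peaks were divided into 5 quintiles by GC content, the arisen share climbed from 1.18% in the lowest quintile (GC content up to 40.2%) through 3.01%, 6.30% and 9.47% to 20.5% (19.5% to 21.5%) in the highest (from 59.8%).

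GC content and fold enrichment together separated the peaks further. Among treated peaks in the highest quintile of GC content and the lowest quartile of fold, 584 of 1125 had arisen, or 51.9% (49.0% to 54.8%). At the same low fold but in the lowest quintile of GC content the share was 2.22% (1.67% to 2.95%), and in the highest quintile of GC content but at the highest fold it was 1.22% (0.837% to 1.76%). Within each quartile of fold the share was highest in the GC-richest quintile. The part of GC content in the calls was not tested.

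**Figure D1:**
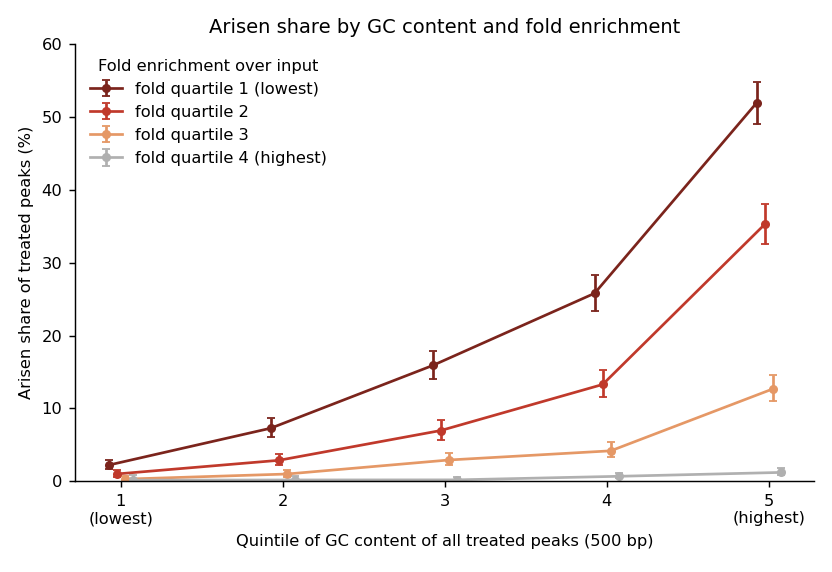
Share of treated peaks that had arisen (vertical axis, percent, with Wilson 95% intervals) in each quintile of GC content over 500 bp (horizontal axis), with a line for each quartile of fold enrichment over input. The share reached 51.9% for GC-rich peaks of low fold and stayed at or below 1.22% in the quartile of highest fold.

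The core of the CTCF consensus was less frequent at arisen peaks than at the treated peaks shared with control cells. A match with at most 1 mismatch lay within the 400 bp around 39.0% of arisen peaks (37.04% to 40.96%), around 62.4% (61.8% to 62.9%) of the other treated peaks and around 31.5% (30.9% to 32.2%) of the lost control peaks. In windows 10 kb away from the peak the share was 4.06% for arisen and 3.08% for other treated peaks, so that arisen peaks stood well above the background of their surroundings. The share was below that of the other treated peaks on 23 of 23 chromosomes, and the difference was also present in every quartile of fold. In the lowest quartile it was 38.4% against 49.0%, and in the highest 45.7% (32.2% to 59.8%, 21 of 46 peaks) against 73.5%. A longer matrix of 20 bases, made from the 5000 strongest shared peaks with a core match and set so that 1% of the windows 10 kb away pass, was found at 33.2% of arisen, 60.2% of other treated and 16.2% of lost control peaks. By this matrix arisen peaks lay between both other sets. By quartile of fold it was found at 26.8%, 35.2%, 50.2% and 71.7% of arisen peaks. The other treated peaks had 36.4%, 52.2%, 67.2% and 80.6%. In the highest quartile, where 33 of 46 arisen peaks held it, the intervals overlapped (57.5% to 82.7% and 79.7% to 81.5%). The 5000 peaks that made it belong to the other treated peaks, so that the share of the latter is raised by construction.

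A match without mismatch was found at 9.88% of arisen peaks, 21.2% of the other treated peaks and 4.12% of the lost control peaks. Where a core match was present, it contained a CG dinucleotide in 12.1% of arisen peaks (10.1% to 14.3%), 8.15% of the other treated peaks and 2.74% of the lost peaks. The consensus allows no CG within its 12 bases, so that a CG there can come only from the mismatch. A CG formed by the last core base and the base after it was not counted. These shares therefore do not measure how often the sites hold a CG. Arisen peaks with a match lay at sites of the direct comparison in 43.4% of cases and those without one in 39.1%, with intervals of 40.2% to 46.6% and 36.7% to 41.7% that overlap. Several matches within a peak were found for 40 arisen peaks, or 1.68%, against 2.83% of the other treated peaks.

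A repeated sequence, looked for after the sites had been seen, linked a pair of the named peaks. Among 32 named peaks, compared in 496 pairs over 400 bp on both strands, the longest identical run was 40 bases, and the next longest of any pair was 19. The run joined the intergenic peak at chr2:83744951-83745150, with a fold of 50.1, to the peak in an intron of UNC13C, a gene for a protein that primes synaptic vesicles, at chr15:54886451-54886600, with a fold of 45.5. It is shown because it holds the core match of both, in capitals, on the strand that carries it.
Shared run: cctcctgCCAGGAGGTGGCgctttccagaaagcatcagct
The run occurred 10 times on chromosomes 1 to 22 and X of GRCh37, and it lay within 500 bp windows of 2 arisen peaks, 1 other treated peak and 0 of the 20354 lost control peaks. Reads without a unique position had been removed by the authors, so that copies of a repeat were seen only where they differ.

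The gene context of the arisen peaks was shifted towards promoters and coding exons. Peaks centred within 1 kb of a start site of a protein-coding gene were 593 of 2378 arisen peaks, or 24.9% (23.2% to 26.7%), 10.6% (10.3% to 10.99%) of the other treated peaks and 5.89% of the lost control peaks. Coding exons outside promoters held 176 arisen peaks, or 7.40% (6.42% to 8.52%), against 2.36% (2.19% to 2.55%) of the other treated peaks and 1.66% of the lost peaks. Introns of protein-coding genes held 35.5% of arisen and 40.1% of other treated peaks, and intergenic DNA held 428 arisen peaks (16.5% to 19.6%) and 30.6% of the other treated peaks. Counted the other way, 17.1% (15.9% to 18.4%) of all treated peaks at protein-coding promoters and 21.5% (18.9% to 24.5%) of those in coding exons had arisen, whereas 7.18% of those in introns of protein-coding genes and 4.90% of intergenic ones had. The promoter share was higher for arisen than for other treated peaks on 23 of 23 chromosomes, and the coding exon share on 22, with chromosome 18 as the exception.

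**Figure D2:**
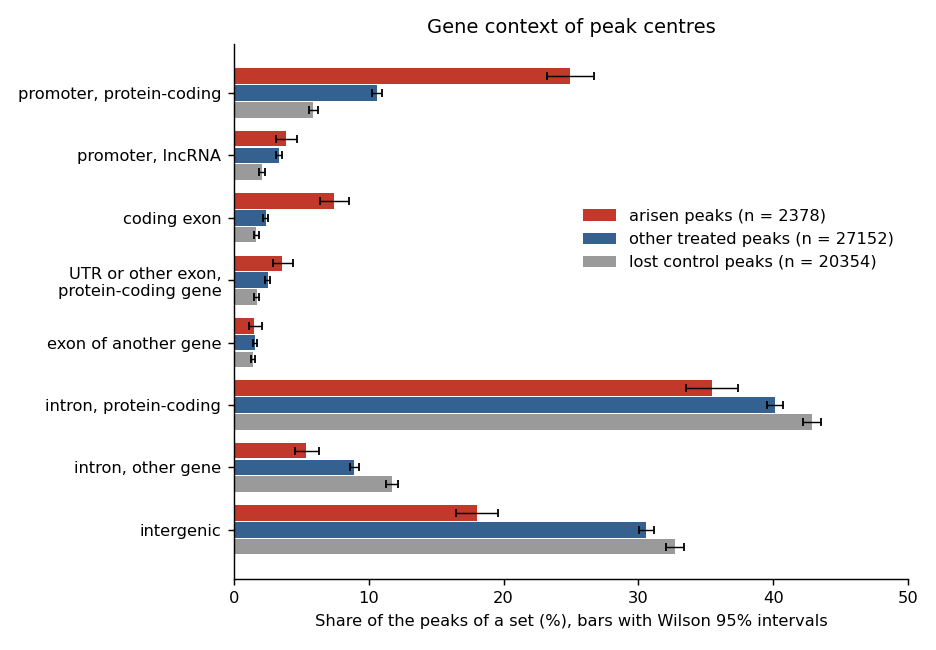
Share of arisen (red), other treated (blue) and lost control peaks (grey) by the annotation at the peak centre (horizontal axis, percent, with Wilson 95% intervals). Arisen peaks stood at 24.9% in protein-coding promoters and 7.40% in coding exons, above both other sets, and below both in intergenic DNA.

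GC content moved with these contexts. In the highest quintile of GC content the promoter share was 43.4% (40.6% to 46.2%) for arisen and 40.2% (38.8% to 41.6%) for other treated peaks, and in the next lower quintile it was 10.4% and 10.2%, so that the intervals overlapped. None of the 70 arisen peaks of the lowest quintile was at such a promoter, against 1.31% of the other treated peaks there. Taken as 3 counts in 70, this allows a share of up to 4.29%, and the Wilson interval reaches 5.20%. Coding exons behaved differently. In the highest quintile they held 10.6% (9.02% to 12.5%) of arisen and 6.10% (5.45% to 6.82%) of other treated peaks, and in the next lower 6.18% (4.46% to 8.51%) and 2.72% (2.31% to 3.19%). The share with a core match remained lower for arisen peaks in each quintile, with 33.0% against 52.9% in the highest and 38.6% against 68.6% in the lowest.

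Promoter peaks that had arisen also lay at a different place along the gene. Of the 593, 57.2% (53.2% to 61.1%) were centred downstream of the nearest start site, against 35.4% (33.7% to 37.2%) of the 2882 other treated peaks at promoters. Between 100 and 500 bp downstream lay 28.7% of arisen and 15.1% of other promoter peaks, and over the same distances upstream 20.9% and 29.6%. The share downstream was the higher for arisen peaks on 23 of 23 chromosomes. In the highest quintile of GC content it was 59.4% (55.1% to 63.5%) against 39.0% (36.8% to 41.2%), in the next lower 38.6% (27.1% to 51.6%) of 57 arisen against 28.4% (24.7% to 32.3%), with overlapping intervals, and in the lowest quartile of fold 59.5% (53.9% to 64.9%) against 45.02% (40.7% to 49.4%). Arisen promoter peaks without a core match were downstream in 59.2% of cases and those with one in 49.2% (40.4% to 58.0%). A core match was found at 20.2% (17.2% to 23.7%) of arisen promoter peaks and at 45.2% of arisen peaks away from promoters, and 83.5% of arisen promoter peaks resembled CpG islands.

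**Figure D3:**
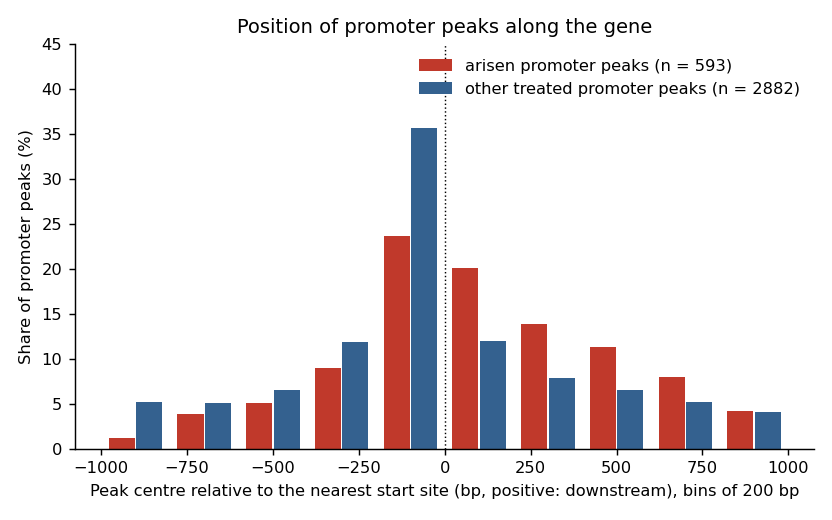
Position of peak centres within 1 kb of the nearest start site of a protein-coding gene, in bins of 200 bp along the gene's strand (horizontal axis, bp), as a share of arisen (red) and other treated (blue) promoter peaks. The bin just upstream of the start site was the largest of both sets, with 35.7% of other treated and 23.6% of arisen promoter peaks. Downstream of the start site lay 57.2% of arisen promoter peaks.

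Genes with an arisen peak at a promoter numbered 635 of 19739 protein-coding genes, or 3.22%, and 136 of them, or 21.4%, also had a control peak within 1 kb of a start site. Over all protein-coding genes the share with a control peak there was 20.2%. The 15 arisen promoter peaks of highest fold ranged from 40.2 to 68.8, and all 15 lay at sites of the direct comparison. JAG2, which encodes a Notch ligand, headed them with a fold of 68.8 at chr14:105635451-105635850, centred 489 bp upstream of the start site and 18450 bp from the nearest control peak. HSDL1, for a dehydrogenase-like mitochondrial protein, followed with a fold of 61.5 at chr16:84178501-84178800, centred 124 bp downstream of the start site. CTDP1, the phosphatase of the carboxy-terminal domain of RNA polymerase II, had a peak of 51.6-fold at chr18:77440001-77440350, 329 bp downstream. None of these 3 held a core match with at most 1 mismatch, and GC content over 500 bp was 70.8% at JAG2, 75.6% at HSDL1 and 77.6% at CTDP1.

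A kinase gene, LRRK1, had the GC-richest of the named promoter peaks, with a GC content of 83.4% and a fold of 48.8 at chr15:101459551-101459850, only 1000 bp from a control peak. OCA2, which encodes a melanosome transport protein, stood apart with a core match without mismatch and a lower GC content of 59.2%, and its peak had a fold of 47.8. ABO, the glycosyltransferase of the blood group of that name, had a peak of 46.4-fold at chr9:136150551-136150850, centred 65 bp upstream of the start site in DNA with a GC content of 79.8%. The peak at OAF had a fold of 44.8, and that at WWC3, a gene of the Hippo pathway, a fold of 43.6. The only other core match among the 15 was at PRSS21, the gene of the serine protease testisin, where the peak at chr16:2867051-2867350 had a fold of 43.5 and was centred 19 bp from the start site. The remaining promoter peaks were at CPNE4, for a calcium-dependent membrane-binding protein, with a fold of 43.6, HMGXB4, for an HMG-box protein, with 43.0, the zinc finger gene ZNF134 with 42.4, TTC22 with 42.2, MRPS6, for a protein of the mitochondrial ribosome, with 40.4, and ATP6V0C, for a subunit of the vacuolar proton pump, with 40.2. Of the 15 windows, 10 resembled CpG islands. Only at LRRK1 was a control peak within 1 kb.

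The genes fixed in lists were mostly without an arisen promoter peak, and the lists had been drawn up with earlier results of these data known. For 9 of 13 lists at least 1 gene had such a peak. Immediate early genes, which respond first to growth signals and stress, had it at 6 of 24 genes, beside the 3.22% of all protein-coding genes. Their share with a control peak at a promoter was 37.5%, also above the 20.2% of all genes. FOSL1, a subunit of the AP-1 factor, had the strongest of these at chr11:65666851-65667100, with a fold of 31.8 and at a site of the direct comparison. Another AP-1 subunit gene, FOSB, had a peak of 16.5-fold, and BTG1, an antiproliferative gene, one of 18.2-fold. The zinc finger factor genes KLF6 and KLF2 had peaks of 15.4-fold and 7.71-fold, the latter 250 bp from a control peak, and the nuclear receptor gene NR4A1 one of 6.64-fold. KLF6 and FOSL1 were the members at sites of the direct comparison. The peaks at FOSB, KLF2 and NR4A1 had FDRs of 0.0020, 0.00145 and 0.00136, weaker than any call in the control list, whose largest FDR was 0.00132.

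Other lists were close to the background or held few genes. Among genes named ZNF, most of which encode zinc finger proteins, 13 of 513 had an arisen promoter peak, or 2.53%, and the strongest were at ZNF134, ZNF587B with a fold of 39.0, ZNF814 with 34.8 and ZNF219 with 30.1. The first 3 of these lay in the gene cluster at the end of chromosome 19, and ZNF587B and ZNF814 each held a core match without mismatch. The clustered protocadherins, neuronal adhesion genes whose alternative promoters are classical CTCF targets, had an arisen peak at 3 of 53 genes and a control peak at 44 of them. These were PCDHA3, with a fold of 27.8 and a control peak 400 bp away, PCDHA10, with 20.7 and a control peak 450 bp away, and PCDHAC1, with 27.6 and the nearest control peak 43600 bp away. Cytosolic ribosomal protein genes had it at 3 of 79 (RPL13, with a fold of 33.9, RPS2 with 25.2 and RPL35 with 14.6). Heat shock genes had it at 2 of 21, HSF2 with a fold of 21.7 and HSP90AA1 with 14.9, and matrix and collagen genes at 2 of 27, VIM with 19.4 and COL6A2 with 11.2. Among genes of the architectural factors and FACT, CTCFL, the germline paralogue of CTCF, was the single case in 28, with a fold of 16.2 and a control peak 1000 bp away. The peaks at CTCFL and RPS2 had FDRs of 0.00159 and 0.00151, also weaker than any call in the control list. UBTF, a factor of RNA polymerase I, was the single case in 23 genes of ribosome biogenesis, with a fold of 22.5, and HOXA9 that in 39 HOX genes, with 13.9. No arisen promoter peak was found at 26 p53 targets, 24 genes of the NF-kB pathway, 33 interferon-stimulated genes or 87 histone genes. Taken as 3 counts over the number of genes, a count of 0 allows shares of up to 11.5%, 12.5%, 9.09% and 3.45% in these lists.

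Away from promoters, the arisen peaks of highest fold more often held the core match. Of the 5 strongest in introns, 4 did. That in ENPP6, a phosphodiesterase gene, had a fold of 54.9 at chr4:185018451-185018750, 2700 bp from a control peak. That in OLFM1, which encodes a secreted neuronal glycoprotein, had a fold of 52.3 at chr9:137977251-137977550, 350 bp from a control peak. It was the one without a match of at most 1 mismatch, and its best match had 2. The others were in LINC02940, with a fold of 52.1, in overlapping noncoding genes (ENPP7P4 and LINC02614), with 47.3, and in UNC13C, with 45.5. The last was the only one of these 5 that was not at a site of the direct comparison, and its nearest control peak was 243450 bp away.

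Of the 5 strongest intergenic peaks over 50 kb from any start site of a protein-coding or lncRNA gene, 4 held the core match and none resembled a CpG island. They included chr9:96632251-96632500, with a fold of 48.4 and 83338 bp from the start of the homeobox gene BARX1, chr10:61252901-61253150, with 39.0 and 130364 bp from FAM13C, and chr1:18887251-18887500, with 39.0 and 69965 bp from PAX7, a factor of muscle stem cells. The remaining ones lay among the immunoglobulin heavy chain variable genes on chromosome 14, between 106405611 and 107288019, where 5 of 39 treated peaks had arisen (12.8%, 5.60% to 26.7%) and 36 of 38 control peaks were kept. Over chromosomes 1 to 22 and X 8.05% of treated peaks had arisen, a share within that interval, and 42.9% of control peaks were lost. The peak at chr14:106598051-106598850 was 800 bp wide, the widest of all arisen peaks, with a fold of 47.1 and 12 core matches, the most in any arisen peak. The peak at chr14:107113551-107113750 had a fold of 55.2 and no match with at most 1 mismatch. It overlapped the variable gene IGHV3-64, and the 800 bp peak lay 145 bp from IGHVIII-13-1. Starts of immunoglobulin variable genes were not counted in the limit of 50 kb. The peaks in coding exons were named after their values were seen. The strongest were in MAN2B1, a lysosomal mannosidase gene, with a fold of 46.4, in GAREM2 with 45.9, in IQSEC2, for an exchange factor of ARF proteins, with 40.5, and in TUBGCP6, for a protein of the gamma-tubulin complex, with 39.9, and all 4 were at sites of the direct comparison.

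The gaps between arisen peaks and control peaks were near those of the other treated peaks. The gap to the nearest control peak, measured between the nearest edges, had a median of 10350 bp (quartiles 3550 bp and 25450 bp), and the gap from other treated peaks to the nearest control peak they did not overlap was 12100 bp (4400 bp and 28600 bp). A control peak lay within 1 kb of 9.59% (8.47% to 10.8%) of arisen and 5.94% (5.66% to 6.22%) of other treated peaks. The other treated peaks already overlapped a control peak and needed another one called beside it, so that short gaps are rarer among them by construction. GC content moved with this share too. In the highest quintile of GC content it was 13.7% (11.9% to 15.8%) against 10.5% (9.68% to 11.4%), in the next lower 6.18% (4.46% to 8.51%) against 7.34%, and in the middle one 4.24% against 5.42%. The excess within 1 kb was therefore not present in each quintile. No control peak was found within 100 kb of 88 arisen peaks, or 3.70% (3.01% to 4.54%), and of 3.32% of the other treated peaks.

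The control peak nearest to an arisen peak was less often a lost one than the nearest that another treated peak did not overlap. For the other treated peaks the control peak they overlap, which is kept by definition, was left out. The nearest one was lost for 743 of 2378 arisen peaks, or 31.2% (29.4% to 33.1%), and for 38.7% (38.1% to 39.3%) of the other treated peaks, while 42.9% of all control peaks were lost. These shares were not divided by GC content. The share was below that of the other treated peaks on 20 of 23 chromosomes, the exceptions being 7, 8 and 22. Within 1 kb of an arisen peak 66 of 228 nearest control peaks were lost, or 28.9% (23.4% to 35.1%), and these 66 arisen peaks had a median fold of 14.5. The nearest control peaks had a median fold of 31.0 in the control list, where all control peaks had 28.7.

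The 3 arisen peaks farthest from any control peak were over 1 Mb away from it. The peak at chr21:9834951-9835050 was 5657450 bp away and had a fold of 6.12. The peak at chr11:50017201-50017350, with a fold of 27.2 and a core match without mismatch, was 1542700 bp away, and 13204 bp from the start of the olfactory receptor gene OR4C12. The peak at chr4:59987751-59987850, with a fold of 19.3, was 1079000 bp away, in DNA with a GC content of 28.8%. None of the 3 was at a site of the direct comparison.

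Another arisen peak came next more often after an arisen peak than after another treated peak. The next treated peak along the chromosome had arisen for 13.9% (12.5% to 15.3%) of arisen and 7.53% (7.23% to 7.85%) of other treated peaks, and when it was within 10 kb for 20.2% (17.2% to 23.7%) and 9.30% (8.54% to 10.1%). The share was higher for arisen peaks on 21 of 23 chromosomes, the exceptions being 1 and 15. In the highest quintile of GC content it was 17.1% (15.1% to 19.3%) against 11.3% (10.5% to 12.3%), and in the next lower 14.2% (11.5% to 17.3%) against 9.04%, whereas in the lowest quintile it was 7.14% (3.09% to 15.7%) against 5.37%. Without chromosome 19 the shares were 12.9% and 7.22%. The distance between successive arisen peaks nonetheless had a median of 366125 bp, and 138 of 2355 distances were at most 10 kb.

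Groups of arisen peaks were found on 19 chromosomes, and 46 of 86 were near a chromosome end. Centres at most 50 kb apart joined 307 arisen peaks, or 12.9%, into 86 groups of at least 3, and 70.9% of arisen peaks had no other within that distance. Of the 86 groups, 17 were on chromosome 19, and near an end means that they lay within 5 Mb of it. Within the groups 181 of 221 control peaks were kept, or 81.9%, while 42.9% of all control peaks were lost. The median over groups of the median GC content was 64.3%, and lost control peaks had a median GC content of 43.0%. The kept share was not divided by GC content. Genome-wide, 26.0% (24.3% to 27.8%) of arisen and 11.3% (10.9% to 11.6%) of other treated peaks were within 5 Mb of a chromosome end. In the highest quintile of GC content these shares were 35.2% (32.6% to 38.0%) and 25.6% (24.4% to 26.9%), and in the lowest 4.29% (1.47% to 11.9%) and 3.74%.

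The largest group was at chr19:1369501-1478900, where 9 of 14 treated peaks had arisen and 5 of 6 control peaks were kept. The 9 peaks had folds of 9.57 to 32.1, 6 of them were at sites of the direct comparison and 1 held a core match with at most 1 mismatch. The first lay in a coding exon of PWWP3A with a fold of 9.57, and the next at the promoter of a lncRNA gene, with 23.9 and the core match, which had no mismatch. A pair lay in introns of DAZAP1, which encodes an RNA-binding protein, with 23.3 and 15.7. The other 5 lay from an intron of APC2, a relative of the tumour suppressor APC, with a fold of 12.9, to the promoter of C19orf25, with 24.5. Among them the strongest, with 32.1, was the peak at chr19:1468651-1468850, in a coding exon where the bodies of APC2 and C19orf25 overlap.

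**Figure D4:**
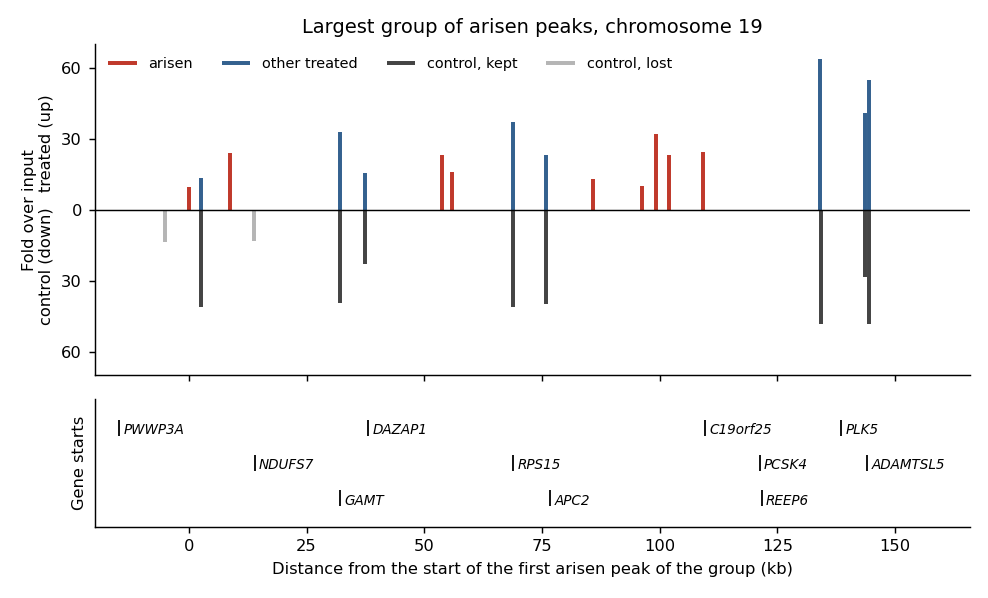
The largest group of arisen peaks, on chromosome 19, with the distance from its first arisen peak (horizontal axis, kb), fold over input of treated peaks upwards and of control peaks downwards, and gene starts underneath. The 9 arisen peaks (red, folds of 9.57 to 32.1) were interspersed with shared peaks, the first of them at the left edge of the group, and 5 of the 6 control peaks within the group were kept (dark grey). Folds of the lists were computed separately and are not compared.

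The next groups were alike in setting. That at chr19:940901-1036250 held 7 arisen peaks with folds of 11.7 to 24.7 over genes that included ARID3A, WDR18, GRIN3B, TMEM259 and CNN2, and all 5 of its control peaks were kept. That at chr9:140135101-140197050 held 6, with folds of 11.8 to 26.5, over genes including TUBB4B, for a beta-tubulin, NELFB, for a subunit of the negative elongation factor of RNA polymerase II, and NRARP, for a regulator of Notch signalling. There 4 of the 6 were at promoters. The groups at chr11:747451-867800 and chr14:105586051-105715050, the latter with the JAG2 peak, also held 6 arisen peaks each, and of the 3 the shortest was described. By gene, 1510 of 20098 protein-coding genes held at least 1 arisen peak within their bodies, 209 at least 2 and 44 at least 3. The genes with most, 5 each, were named after their values were seen. TNS1, for a focal adhesion protein, held 5 of 11 treated peaks, the deacetylase gene HDAC4 5 of 9, SORCS2 5 of 11 and the cadherin gene CDH4 5 of 13. These genes were between 234 kb and 688 kb long. Of all treated peaks on chromosomes 1 to 22 and X 8.05% had arisen, but these genes were picked for their high counts. The counts by gene were not set beside those of the other treated peaks.

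Chromosome 19 had the highest arisen share of treated peaks and chromosome 6 the lowest. On chromosome 19, 228 of 1481 treated peaks had arisen, or 15.4% (13.6% to 17.3%), followed by chromosome 21 with 48 of 356, or 13.5% (10.3% to 17.4%), chromosome 16 with 128 of 1102, or 11.6% (9.86% to 13.6%), and chromosome 22 with 66 of 601, or 10.98% (8.73% to 13.7%). On chromosome 6, 77 of 1305 had arisen, or 5.90% (4.75% to 7.31%), preceded by chromosome 15 with 6.13% (4.77% to 7.84%), chromosome 18 with 6.20% (4.47% to 8.54%) and chromosome 4 with 6.24% (4.96% to 7.84%). The intervals of the leading pair overlapped, as did those of the 4 lowest, so that neighbours in this order cannot be ranked at these counts. Per length the arisen peaks came to 3.86 per Mb on chromosome 19 and 0.322 per Mb on the X chromosome, which was the lowest.

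Chromosomes with GC-rich treated peaks had the higher shares. Over the 23 chromosomes the arisen share had a Pearson's r of 0.73 with the median GC content of the treated peaks (Spearman's rho 0.68), and of 0.63 without chromosome 19. With protein-coding genes per Mb the r was 0.63, and 0.25 without chromosome 19. Chromosomes share the libraries, so that these values are a description. If each chromosome had the genome-wide arisen rate for the quintiles of GC content of its own peaks, chromosome 19 would have 12.6% and chromosome 21 8.63%, both below the observed intervals, as for chromosomes 5 and 13, and chromosome 11 would have 9.18%, above its observed 6.77% (5.62% to 8.13%), as for chromosome 17. Within the highest quintile of GC content the arisen share was 32.9% (23.9% to 43.5%) on chromosome 21, 31.6% on chromosome 13, 26.1% on chromosome 5, 25.2% on chromosome 4 and 24.7% (21.4% to 28.4%) on chromosome 19, and it was 13.0% (6.42% to 24.4%) on chromosome 18 and 13.6% (10.5% to 17.5%) on chromosome 2. Chromosome 19 also had the smallest share of lost control peaks, 21.1%.

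**Figure D5:**
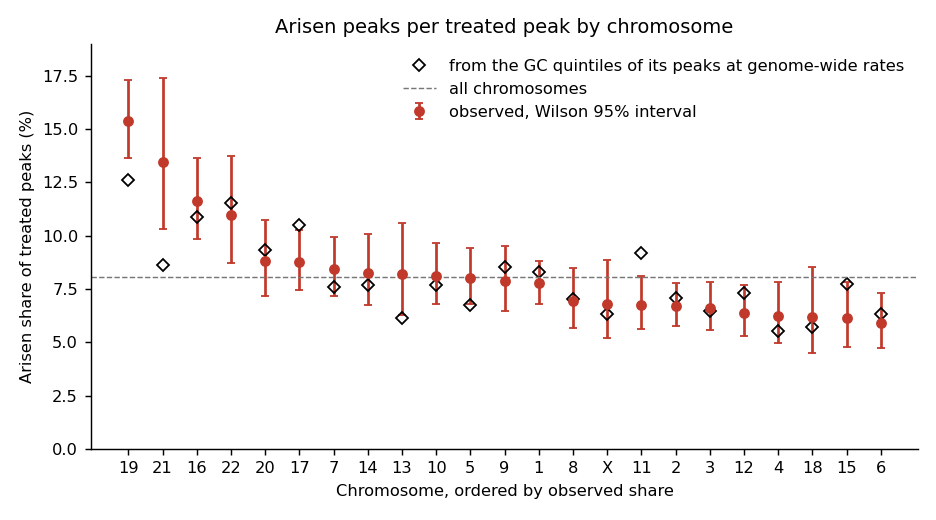
Arisen share of treated peaks by chromosome (vertical axis, percent, points with Wilson 95% intervals), ordered by share, with the value expected from the GC content of the chromosome's peaks as open diamonds and the share over all chromosomes as a dashed line. Chromosomes 19 and 21 stood above their diamonds, with 15.4% and 13.5%, and chromosome 11 below its own, with 6.77%.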

How the data were processed

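CTCF ChIP-seq and input libraries of control and CBL0137-treated HT1080 cells were mapped by the authors to hg19 with Bowtie2 2.2.3, and the submitters' processing notes also name SAMtools 1.5 and deepTools 2.0. Reads without a unique position and duplicates were removed by the authors. Peaks were called by the authors with PePr from both replicates of a condition together. In the deposited lists a peak carries a fold, the ratio of ChIP to input, and an FDR that rests on a p-value. Lists of the authors' direct comparison hold fold and p-value columns, which were not used, and only the positions of their sites higher in treated cells were read. Signal tracks and reads were not analysed here.

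Peaks were annotated at their centres with GENCODE v44lift37 on GRCh37, and no peak on chromosomes 1 to 22 and X lay beyond the end of its chromosome. Promoters were 1 kb on either side of a start site, taken before exons, introns and intergenic DNA. GC content and CG dinucleotides were counted over 500 bp. The core of the CTCF consensus was searched on both strands of 400 bp, with at most 1 mismatch. Shares have Wilson 95% intervals, and no test was run, because each list joins its replicates. Limits for a count of 0 are 3 counts over the number examined unless the Wilson interval is named. Versions were pysam 0.24.0, pandas 2.3.3, numpy 2.4.6 and matplotlib 3.10.9 under Python 3.11.15. The overlap routine was tested on treated peaks moved by random steps, and the core search on simulated sequences. Named were the 10 arisen peaks of highest fold, the 15 at protein-coding promoters and the 5 in introns. Also named were the 5 intergenic over 50 kb from any protein-coding or lncRNA start site and the 3 largest groups (the shortest where groups tied). The 3 peaks farthest from a control peak and the genes of the lists (the 4 of highest fold where a list had over 10) were named too. The arisen peaks and the gene lists were chosen with earlier results of these data known. Other rules of overlap, thresholds on the lists, promoter windows and motif settings were tried as well (closing section). The position of promoter peaks along the gene, the joint division by GC content and fold, the counts of core matches and the shared run were added after the data were seen.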

Additional observations from a re-analysis of the deposited data

Results flagged for a closer look

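Data outside the measures of the report held 8 further arisen peaks, on sequences other than chromosomes 1 to 22 and X. They were noted because nothing in the control list overlaps them, and no measure that needs gene annotation was computed for them. Of the unplaced and unlocalised sequences, gl000225 held 4 arisen peaks among 5 treated peaks, gl000220 held 2 among 7, and gl000204 on chromosome 17 held 1 among 2. Chromosome Y held the other arisen peak, among 2 treated peaks.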

How the results depend on the processing

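The number of arisen peaks, 2386, became 6140 when overlap had to exceed 50% of the larger peak, 1491 when both lists were limited to an FDR of at most 1e-05, and 480 when only the treated list was. Under these 3 settings, in this order, the share at protein-coding promoters was 15.6%, 22.9% and 24.9%, that with a core match 45.2%, 43.3% and 43.3%, the median gap to a control peak 11900 bp, 16550 bp and 9625 bp, the share followed by an arisen peak 22.5%, 9.99% and 4.19%, the arisen share on chromosome 19 23.9%, 13.2% and 4.21%, and the share at sites of the direct comparison 19.4%, 56.2% and 87.0%. The arisen share of all treated peaks, against which the neighbour share is read, was then 20.8%, 7.15% and 2.30%. Chromosome 21 had the highest share under the first and the last of these settings, with 25.6% and 5.08%, and chromosome 18 the lowest, under the other. Chromosome 15 was lowest with a control peak within 500 bp (5.60%) or 2 kb (4.86%) counted as shared and with at least 10-fold enrichment (5.51%). The median GC content of arisen peaks was 50.4% under the rule of over 50% overlap, against 48.6% of the other treated peaks, and 58.6% to 61.6% under the other 5 settings, against 48.2% to 48.8%. With a control peak within 2 kb counted as shared, the promoter share was 22.4%, the gap 14000 bp and the share on chromosome 19 13.0%, and within 500 bp the gap was 11450 bp. With at least 10-fold enrichment, 45.3% were at sites of the direct comparison. Under the 6 settings on members the promoter share stayed above that of the other treated peaks (at most 11.03%) and the core share below it (at least 61.9%). A promoter window of 500 bp gave 18.9% for arisen and 7.90% for other treated peaks, and one of 2.5 kb 31.0% and 15.3%. Core matches were at 9.88% of arisen peaks with 0 mismatches, 82.6% with at most 2, 36.9% in 200 bp and 33.2% with the matrix, which was added after the data were seen, as were the quintiles of GC content, against 21.2%, 91.5%, 61.0% and 60.2% of the other treated peaks. No paired analysis was possible because each list used here joins both replicates (signal per replicate was not used), and for the same reason no run without a replicate was made. Depth per library was not used, so that a weak peak of control cells cannot be told apart from none.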
